A study of Mus musculus with 10 samples.

Results

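Cholinergic and dopaminergic genes were followed in the retinas of C57BL/6 mice aged 10 to 12 weeks, after vehicle or after vigabatrin, by RNA sequencing. The set held 10 genes chosen by name from the 35275 genes of the count table: Chat, Slc18a3, Slc5a7 and Ache of acetylcholine, Th, Slc18a2 and Slc6a3 of dopamine, and the dopamine receptors Drd1, Drd2 and Drd4. Of these, 9 were found under their own name and Drd1 under its older symbol Drd1a, through its Ensembl identifier. There were 5 vehicle libraries and 5 vigabatrin libraries. Vigabatrin was delivered by an osmotic pump under the skin over 11 days, at 140 mg/kg/day, and how or how long vehicle was given is not stated. Vigabatrin is an antiepileptic drug that irreversibly blocks GABA transaminase, the enzyme that degrades the inhibitory transmitter GABA. The titles call the control libraries untreated, while their treatment label reads vehicle, and libraries are named here by group and title number. Whether the libraries stem from different mice is not stated, and p-values therefore measure the spread between these libraries, which may be technical.

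Acetylcholine in the mammalian retina is made by starburst amacrine cells, interneurons that also release GABA and give direction-selective ganglion cells their preferred direction. Dopamine is made by a sparse class of amacrine cells and acts at a distance on photoreceptors, horizontal, bipolar, amacrine and ganglion cells, where it adapts the retina from dark to light. Choline acetyltransferase and tyrosine hydroxylase are the enzymes that mark the 2 cell types, and the other transporters and receptors load, retrieve or sense the transmitters. Not every gene of the set is restricted to amacrine cells: dopamine receptors lie on the target cells, and Drd4 is a gene of photoreceptors.

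Sequence from before the annotated starts is shown for 4 genes: Chat and Drd4, whose estimates lay farthest from 0 among the well-counted genes of the set, and Th and Slc18a2, which shared a motif. All are from RefSeq promoter windows of build GRCm38.p6, written 5′ to 3′ on the gene's strand, and stop before the first base that GENCODE M21 annotates as an exon. Capitals mark a motif found on either strand. The stretches are chr14:32465990-32466159 (minus strand) for Chat, chr7:142900015-142900245 (minus strand) for Th, chr19:59260628-59260881 (plus strand) for Slc18a2 and chr7:141291768-141292005 (plus strand) for Drd4.
Chat: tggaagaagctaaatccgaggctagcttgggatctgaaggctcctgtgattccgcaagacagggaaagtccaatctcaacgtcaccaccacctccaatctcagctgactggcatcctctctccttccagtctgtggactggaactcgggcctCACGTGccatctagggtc
Th: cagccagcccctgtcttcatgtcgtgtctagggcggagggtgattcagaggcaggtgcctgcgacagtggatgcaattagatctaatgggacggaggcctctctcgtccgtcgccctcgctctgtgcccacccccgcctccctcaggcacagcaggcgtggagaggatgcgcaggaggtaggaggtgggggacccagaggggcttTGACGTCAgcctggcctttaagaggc
Slc18a2: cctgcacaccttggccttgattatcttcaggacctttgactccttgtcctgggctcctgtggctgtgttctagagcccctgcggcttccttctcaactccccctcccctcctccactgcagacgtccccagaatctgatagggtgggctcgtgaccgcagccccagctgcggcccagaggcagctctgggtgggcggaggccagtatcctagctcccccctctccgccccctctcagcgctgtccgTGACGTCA
Drd4: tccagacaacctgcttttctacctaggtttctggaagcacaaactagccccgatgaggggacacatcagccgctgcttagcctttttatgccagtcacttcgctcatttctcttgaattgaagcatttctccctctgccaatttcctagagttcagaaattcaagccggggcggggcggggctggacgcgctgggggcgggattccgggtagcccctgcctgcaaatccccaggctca

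The cyclic AMP response element, TGACGTCA, began 45 bases before the RefSeq start of Th and 4 bases before that of Slc18a2, where it crossed the start. The RefSeq start of Th and its printed stretch lie inside the longer span of the counted gene (7: 142892752 to 142931128, minus strand). For Th the stretch is therefore not upstream of the start of the counted gene. It was found in 1.79% of the 32851 RefSeq windows of 300 bases. The E-box CACGTG, found in 7.15% of windows, began 98 bases before the start of Chat and was also in the windows of Ache and Slc6a3. Of the 11 windows of the 10 genes, 0 held the AP-1 site TGACTCA (5.2% of all windows) or the NBRE site AAAGGTCA (1.51%). No letters of these 4 motifs, searched on both strands, were in the window of Drd4. A match is a description of the sequence and not evidence of binding.

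Library totals ran from 36056135 to 54052502 counts, and 17435 genes had enough counts to be tested, all 10 of the set among them. Markers of amacrine cells in general were present throughout: the summed level of 9 genes, among them Pax6, Tfap2b and Gad1, lay between 1760 and 1800 CPM (counts after scaling each library to 1000000) in vehicle and between 1780 and 1900 CPM after vigabatrin. Among markers of noradrenergic neurons, which share Th and Slc18a2 with dopamine neurons, Slc6a2, the noradrenaline transporter gene, had 24 to 56 counts per library. Its vehicle mean was 1.03 CPM, against 0.295 CPM for Slc6a3, not adjusted for gene length. The log2 fold change of Slc6a2 was -0.65 (SE 0.26, edgeR adjusted p = 0.621), and the tested genes of this list had 2 negative and 1 positive estimates. Dbh had 9 to 24 counts, Pnmt 6 to 17 and Phox2a at most 2, and the 5 genes summed to 1.12 to 2.18 CPM in vehicle and 0.988 to 1.49 CPM after vigabatrin. Markers of skeletal muscle, which also transcribes Ache, summed to at most 7.26 CPM in vehicle and 7.8 CPM after vigabatrin, and 0 of its 10 genes lacked counts altogether. Lens transcripts set 4 libraries apart: vehicle 835 and 1582 and vigabatrin 2344 and 2429 held 12900 to 20100 CPM of 12 lens markers, against 3.89 to 1020 CPM in the other 6 libraries, and 11 of these markers had counts while Lim2 had 0. Markers of the retinal pigment epithelium summed to between 34.3 and 706 CPM in vehicle and between 26.4 and 250 CPM after vigabatrin, with none of the 8 at 0 and the highest sum in vehicle 835. Of these 8 markers 6 had negative and 2 positive estimates after vigabatrin, with a median log2 fold change of -1.70, 4 at an unadjusted p under 0.05 and 0 called by edgeR. Rpe65, 1 of the 8, had 16.2 and 33.6 CPM in vehicle 832 and 835 and 0.616 to 1.45 CPM in the other vehicle libraries. After vigabatrin it ran from 0.404 to 4.685 CPM. The 4 tested cornea markers were all negative, with a median of -1.90, 3 at an unadjusted p under 0.05 and 0 called. Of these, Krt5 had 4.09 and 2.95 CPM in vehicle 832 and 835 and 0.359 to 0.659 CPM in the other vehicle libraries. With vigabatrin it had 0.125 to 0.628 CPM. The part of these tissues in the comparisons that follow was not tested.

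None of the 10 genes passed the test for a difference between vigabatrin and vehicle. By edgeR's quasi-likelihood test with Benjamini-Hochberg adjustment over all tested genes, 0 were higher and 0 lower at an adjusted p under 0.05, where 0.00574% of all tested genes were called. DESeq2 also called 0 of the 9 for which it gave an adjusted p, against 0.564% of all genes. At an unadjusted p under 0.05 there were 3 of 10, Chat, Slc5a7 and Drd4, against 7.36% of all tested genes. Of the 10 genes 6 had positive estimates, against 49.4% of all genes, and their median log2 fold change was 0.06 beside 0.00 over all tested genes. The genes were chosen with earlier results of these data known, so these counts are a description of the set. In whole retina, fewer cells of a type and less RNA per cell cannot be told apart.

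**Figure D1:**
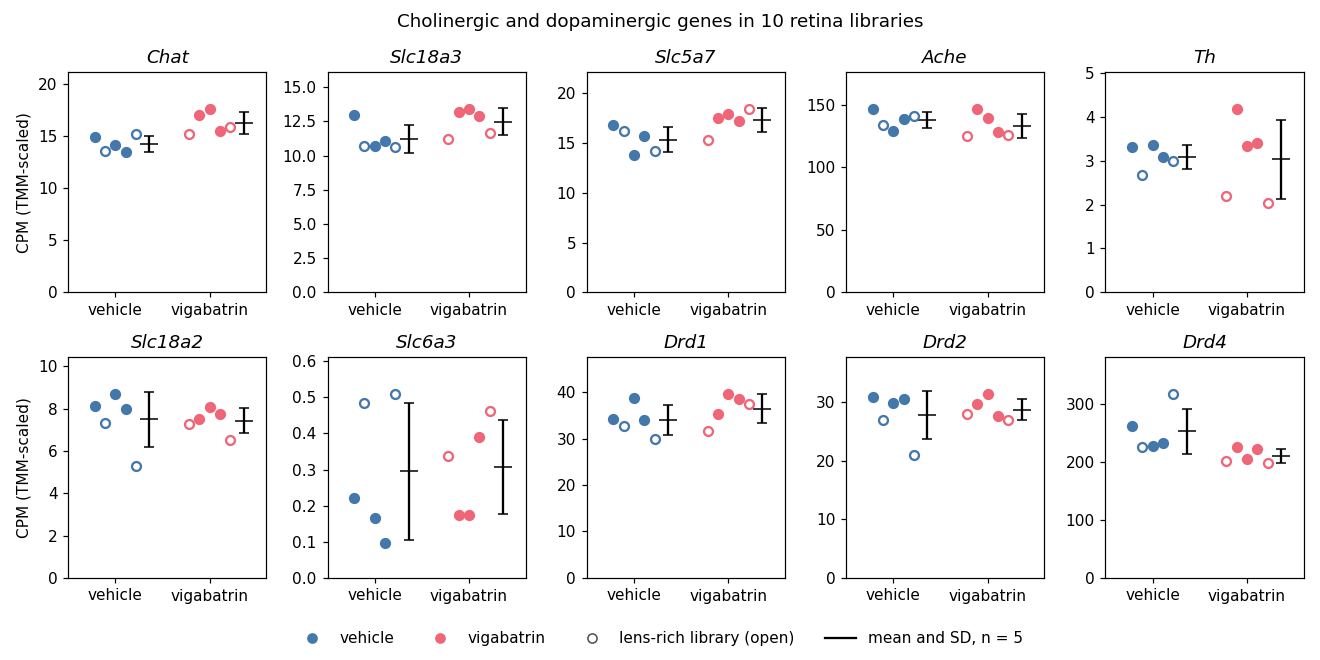
Level of each of the 10 genes in every library, in CPM on a linear axis from 0, with vehicle in blue, vigabatrin in red, the 4 lens-rich libraries as open circles and the mean ± SD (n = 5) in black. Drd4 is the 1 gene whose groups do not overlap, and the 4 lowest points of Th and of Slc18a2 are the open circles.

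Of the 4 cholinergic genes, Chat, Slc18a3 and Slc5a7 had the higher mean after vigabatrin and Ache the lower, and none passed the test. Chat encodes choline acetyltransferase, which makes acetylcholine from choline and acetyl-CoA. It lies on the minus strand of chromosome 14 from 32408203 to 32465909 in mm10 (ENSMUSG00000021919). Vehicle libraries 1580, 1582, 2345, 832 and 835 had 14.9, 13.6, 14.1, 13.5 and 15.2 CPM, and vigabatrin libraries 2344, 2347, 2349, 2428 and 2429 had 15.1, 17.0, 17.6, 15.5 and 15.9 CPM. The groups met at 1 point, where vehicle 835 lay just above vigabatrin 2344. The means were 14.2 ± 0.762 and 16.2 ± 1.04 CPM (SD, n = 5 each), a log2 fold change of 0.19 with a standard error (SE) of 0.06 (95% interval 0.05 to 0.33; edgeR adjusted p = 0.569).

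Slc18a3 encodes the vesicular acetylcholine transporter, which fills synaptic vesicles. The gene is nested in Chat on the same strand (14: 32462438 to 32464850, ENSMUSG00000100241), with its start 1059 bases downstream of that of Chat and 0 exon bases shared between them in GENCODE M21, so that it lies in a Chat intron. Its levels were 12.98, 10.7, 10.7, 11.1 and 10.6 CPM in vehicle 1580, 1582, 2345, 832 and 835. They were 11.2, 13.2, 13.4, 12.9 and 11.6 CPM in vigabatrin 2344, 2347, 2349, 2428 and 2429. Vehicle 1580 reached into the vigabatrin range, while the other 4 vehicle libraries were under the lowest vigabatrin library. The log2 fold change was 0.15 (SE 0.08, 95% interval -0.03 to 0.33, edgeR adjusted p = 0.724).

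Slc5a7 encodes the high-affinity choline transporter, which returns choline to the nerve ending for new synthesis (17: 54273594 to 54299034, minus strand, ENSMUSG00000023945). Vehicle 1580, 1582, 2345, 832 and 835 had 16.8, 16.2, 13.8, 15.7 and 14.2 CPM. Vigabatrin 2344, 2347, 2349, 2428 and 2429 had 15.3, 17.5, 17.9, 17.2 and 18.4 CPM. The vigabatrin libraries other than 2344 exceeded each vehicle library. The log2 fold change was 0.17 (SE 0.07, 95% interval 0.01 to 0.33, edgeR adjusted p = 0.653). Chat, Slc18a3 and Slc5a7 had their highest values in largely the same libraries, since vigabatrin 2347, 2349 and 2428 were among the 4 highest of each. The estimates of all 3 were positive under every one of 20 alternatives, with 0 calls. Slc5a7 measured 0.32 in a model with a term for the range of title numbers, a fit in which vehicle 2345 is the lone control with a number close to those of the vigabatrin libraries.

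Ache encodes acetylcholinesterase, which ends the signal by splitting acetylcholine and is transcribed by many neurons besides the starburst cell (5: 137287519 to 137294466, plus strand, ENSMUSG00000023328). It was the most abundant gene of the cholinergic group, at 129 to 146 CPM in vehicle and 125 to 147 CPM after vigabatrin. The 2 ranges overlapped almost fully. The means were 138 ± 6.66 and 133 ± 9.62 CPM (SD, n = 5 each), with a log2 fold change of -0.05 (SE 0.05, 95% interval -0.17 to 0.07, edgeR adjusted p = 0.888). The sign was not kept in 2 alternatives: the value was 0.04 with a term for title numbers and 0.00 without the 4 lens-rich libraries.

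Th, Slc18a2 and Slc6a3, the genes of dopamine synthesis, vesicle loading and retrieval, did not pass the test, and their intervals hold shifts of either sign. Th encodes tyrosine hydroxylase, the rate-limiting enzyme of dopamine synthesis (7: 142892752 to 142931128, minus strand, ENSMUSG00000000214). Its levels were 3.32, 2.68, 3.37, 3.09 and 2.99 CPM in vehicle 1580, 1582, 2345, 832 and 835. They were 2.20, 4.19, 3.33, 3.41 and 2.03 CPM in vigabatrin 2344, 2347, 2349, 2428 and 2429. The vigabatrin group held both the highest and the lowest library. Its coefficient of variation was 29.8%, against 8.98% in vehicle, a difference in spread that was not tested. The log2 fold change was -0.03 (SE 0.19, 95% interval -0.44 to 0.39, edgeR adjusted p = 0.988).

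Slc18a2 encodes the vesicular monoamine transporter, which loads dopamine into vesicles and serves serotonin and histamine neurons as well (19: 59260878 to 59296012, plus strand, ENSMUSG00000025094). Vehicle 1580, 1582, 2345, 832 and 835 had 8.14, 7.34, 8.69, 7.99 and 5.30 CPM. Vigabatrin 2344, 2347, 2349, 2428 and 2429 had 7.28, 7.50, 8.08, 7.76 and 6.52 CPM. The vigabatrin range lay inside the vehicle range. The log2 fold change was -0.01 (SE 0.13, 95% interval -0.29 to 0.26, edgeR adjusted p = 0.993).

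Slc6a3 encodes the dopamine transporter, which retrieves released dopamine (13: 73536747 to 73578672, plus strand, ENSMUSG00000021609). It was barely detected, with 5 to 25 counts per library. Its levels were 0.220, 0.483, 0.166, 0.096 and 0.509 CPM in vehicle 1580, 1582, 2345, 832 and 835, and 0.337, 0.174, 0.173, 0.389 and 0.462 CPM in vigabatrin 2344, 2347, 2349, 2428 and 2429. The groups overlapped, and a difference between them was not detectable at this depth (log2 fold change 0.06, SE 0.46, 95% interval -0.94 to 1.07, edgeR adjusted p = 0.989). Under other fits the estimate of Slc6a3 was 0.58 (limma-voom) and 0.89 (with a term for title numbers), again without passing the test.

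Levels of Th and Slc18a2 divided the lens-rich from the other libraries, and those of Slc6a3 and Drd2 did so with some overlap. The share of all tested genes that divide the libraries this way is not given here. The division is therefore a description and not a trait particular to these genes. The 4 lens-rich libraries had 2.03 to 2.99 CPM of Th, all below the 3.09 to 4.19 CPM of the other 6. They had 5.30 to 7.34 CPM of Slc18a2, all below the 7.50 to 8.69 CPM of the others. For Slc6a3 the order was the opposite, with 0.337 to 0.509 CPM in the lens-rich libraries and 0.096 to 0.389 CPM in the others, where vigabatrin 2428 alone reached into the upper range. Drd2 had 20.9 to 28.0 CPM in the lens-rich libraries and 27.5 to 31.3 CPM in the others. Chat did not follow this division (13.6 to 15.9 CPM against 13.5 to 17.6 CPM). The part of lens tissue in these values was not tested. Pigment epithelium sums did not divide the libraries in this way, since lens-rich vigabatrin 2429 had 61.3 CPM and vigabatrin 2347, with the most Th, 103 CPM. Sums of cornea markers did, with 25.0 to 32.5 CPM in the lens-rich libraries and 0.847 to 17.3 CPM in the others. These sums are mostly Aldh3a1. Krt5 and Krt15 did not follow, and were highest in vehicle 832, which is not lens-rich, at 4.09 and 7.18 CPM. Sums of iris and ciliary body markers divided the libraries too, with 25.6 to 260 CPM against 10.8 to 17.0 CPM, though not every gene of that list did. The part of these tissues was not tested either. Both groups held 2 lens-rich libraries. Without these 4 libraries the log2 fold change of Th was 0.16 (SE 0.12) and that of Slc18a2 -0.09 (SE 0.08), with edgeR adjusted p of 0.8 and 0.842, while Slc6a3 no longer had enough counts to be tested.

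**Figure D2:**
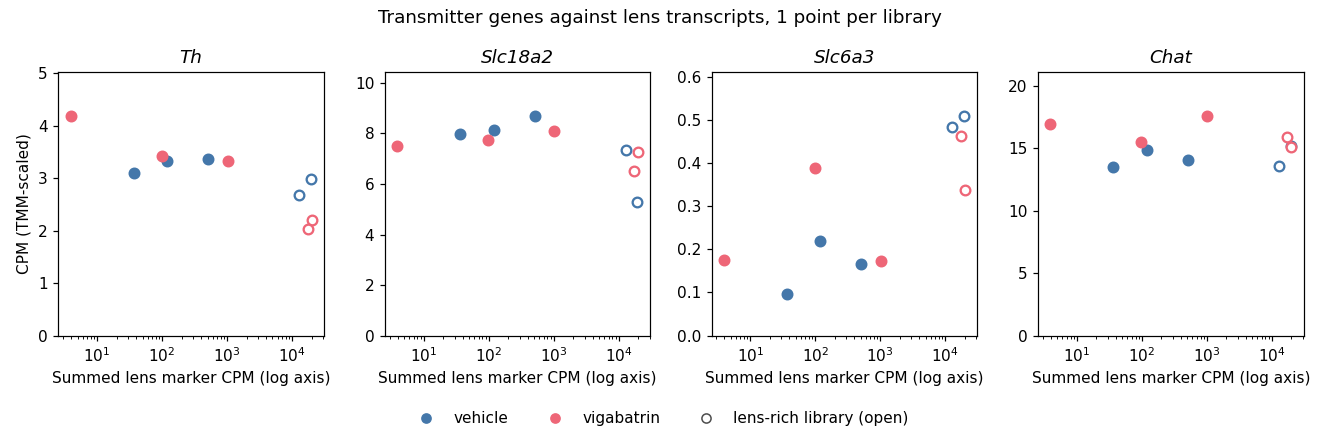
Level of Th, Slc18a2, Slc6a3 and Chat in CPM (linear axis) against the summed CPM of 12 lens markers (log axis), 1 point per library, vehicle in blue and vigabatrin in red. The 4 open circles at the right, the lens-rich libraries, are the 4 lowest for Th and Slc18a2, hold the 3 highest values of Slc6a3, and lie among the rest for Chat.

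Among the receptors, Drd4 was lower after vigabatrin in every library but did not pass the test. Drd4 encodes the D4 receptor, a D2-class receptor that lowers cyclic AMP and is known from photoreceptors (7: 141292006 to 141294999, plus strand, ENSMUSG00000025496). Vehicle 1580, 1582, 2345, 832 and 835 had 262, 226, 227, 232 and 317 CPM. Vigabatrin 2344, 2347, 2349, 2428 and 2429 had 202, 225, 206, 223 and 199 CPM. The groups did not overlap, though vehicle 1582 and vigabatrin 2347 were nearly level, and vehicle 835 stood above all others. Of the 10 genes it alone showed separate groups, a feature of 1.48% of all tested genes (0.631% lower after vigabatrin, as Drd4, and 0.849% higher). The means were 253 ± 38.7 and 211 ± 12.3 CPM (SD, n = 5 each), a log2 fold change of -0.26 with an SE of 0.09 (95% interval -0.46 to -0.06; edgeR adjusted p = 0.57). The estimate was negative under each of the 20 alternatives. Without vehicle 835, the library with the most pigment epithelium transcripts, it was -0.17, without the 4 lens-rich libraries -0.14 and -0.11 with the range of title numbers in the model. The groups overlapped when libraries were scaled by their size alone, under the stricter filter, by upper quartile scaling and without vigabatrin 2429.

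Drd1 encodes the D1 receptor, which raises cyclic AMP in horizontal, bipolar and ganglion cells (13: 54051186 to 54055658, minus strand, ENSMUSG00000021478). Vehicle 1580, 1582, 2345, 832 and 835 had 34.3, 32.7, 38.7, 34.1 and 29.8 CPM, and vigabatrin 2344, 2347, 2349, 2428 and 2429 had 31.6, 35.2, 39.6, 38.5 and 37.4 CPM. The ranges overlapped over most of their length (log2 fold change 0.10, SE 0.08, 95% interval -0.06 to 0.27, edgeR adjusted p = 0.808). With a term for title numbers the value was -0.09.

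Drd2 encodes the D2 receptor, which dopaminergic amacrine cells carry as an autoreceptor (9: 49340662 to 49407214, plus strand, ENSMUSG00000032259). Vehicle 1580, 1582, 2345, 832 and 835 had 30.9, 26.9, 29.7, 30.5 and 20.9 CPM, and vigabatrin 2344, 2347, 2349, 2428 and 2429 had 28.0, 29.6, 31.3, 27.5 and 26.9 CPM. Vehicle 835 was the lowest of all libraries for Drd2 and Slc18a2 and the highest for Drd4. The log2 fold change of Drd2 was 0.05 (SE 0.10, 95% interval -0.17 to 0.26, edgeR adjusted p = 0.949), and without vehicle 835 it was -0.04.

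**Figure D3:**
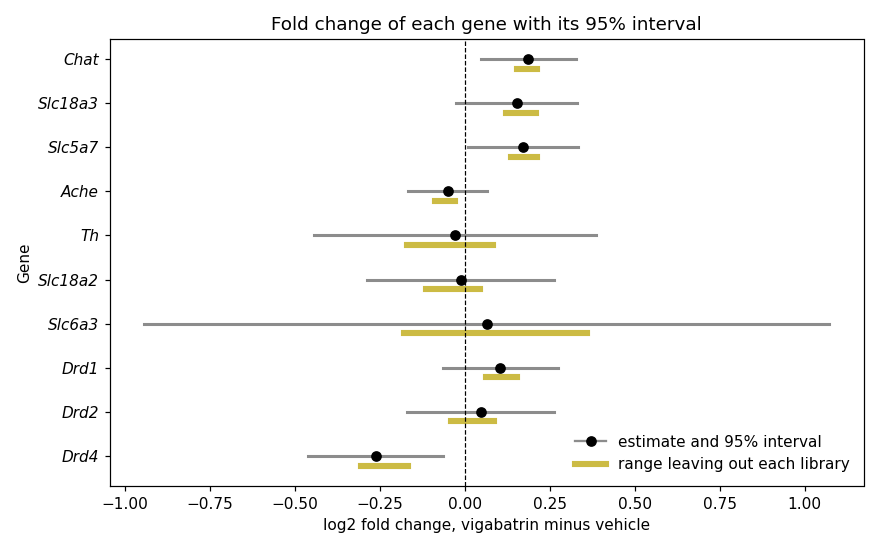
Log2 fold change of each gene, vigabatrin minus vehicle (linear axis), with its 95% interval in grey and, in yellow, the range of the estimate when each of the 10 libraries was left out in turn. The yellow ranges of Chat, Slc18a3 and Slc5a7 stay above 0 and that of Drd4 below 0, while the interval of Slc6a3 runs from -0.94 to 1.07.

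Compared per length, as CPM per kb of the deposited gene length, the receptor Drd4 stood far above the rest. The synthesis enzyme genes Chat and Th lay below Ache and all the receptors of the set. In vehicle Drd4 had 190 ± 29.0 CPM per kb (SD, n = 5), Ache 37.4 ± 1.81 and Drd2 17.9 ± 2.68. Drd1 followed at 9.62 ± 0.912 CPM per kb, and the ranges of these 4 genes did not overlap. Chat at 5.07 ± 0.271 and Slc18a3 at 4.65 ± 0.415 CPM per kb overlapped in their ranges (4.80 to 5.40 and 4.41 to 5.38), so that these neighbours in the order did not differ beyond their spread. Slc5a7 had 2.96 ± 0.245 CPM per kb. Slc18a2 at 1.97 ± 0.346 and Th at 1.55 ± 0.139 CPM per kb again overlapped, and Slc6a3 came last at 0.0853 ± 0.0548 CPM per kb. After vigabatrin the order was the same, from 158 ± 9.19 CPM per kb for Drd4 to 0.0888 ± 0.0374 for Slc6a3. These levels depend on the gene model: with the exon length of GENCODE M21, an alternative added after seeing the data, Drd4 had 74.8 CPM per kb, Drd2 10.9 and Chat 3.03, which placed Chat below Slc18a3 (4.65).

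**Figure D4:**
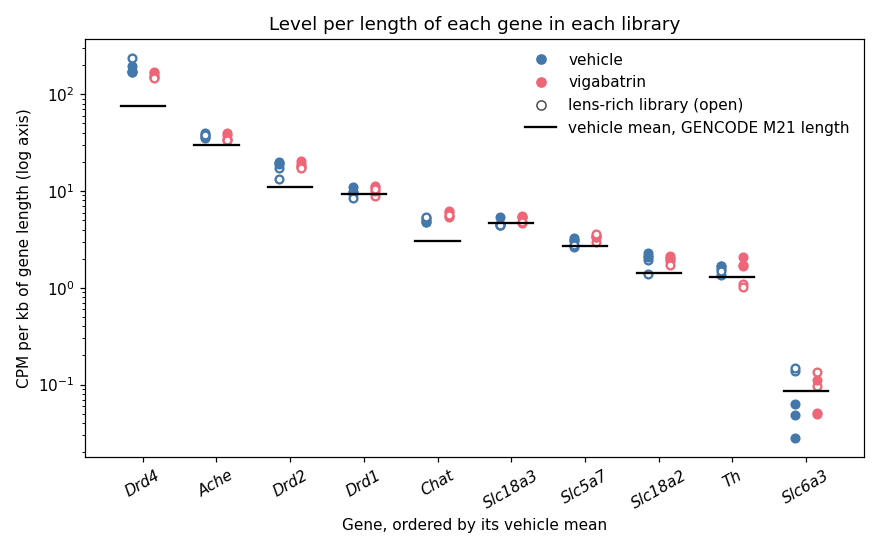
CPM per kb of deposited gene length (log axis) for each gene in each library, ordered by the vehicle mean, with vehicle in blue, vigabatrin in red and lens-rich libraries as open circles. Black lines give the vehicle mean with the GENCODE M21 exon length, which lowers Drd4 from 190 to 74.8 and leaves it highest.

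Receptors for acetylcholine were mostly well measured, and none was called. Of 16 nicotinic subunit genes 12 were tested, 8 with positive and 4 with negative estimates and a median log2 fold change of 0.06. Chrna9 had 0 counts and the muscle subunit gene Chrnd at most 1 count per library. The retinal subunit genes Chrna6, Chrnb2 and Chrnb3 had the highest levels in CPM, with vehicle means of 78.2, 86.1 and 82.4 CPM. Chrna2, an alpha subunit gene, had 5.39 to 6.13 CPM in vehicle and 6.22 to 7.58 CPM after vigabatrin, and its groups did not overlap (log2 fold change 0.25, SE 0.08, edgeR adjusted p = 0.555). Chrna4 measured 0.10 (SE 0.05) and Chrna3 -0.17 (SE 0.11), both with overlapping groups. All 5 muscarinic receptor genes were tested, with 3 positive and 2 negative estimates and a median of 0.00. Chrm1 measured 0.22 (SE 0.10), Chrm5 0.19 (SE 0.19) and Chrm3 -0.09 (SE 0.095). Among 7 other genes of acetylcholine handling, 4 estimates were positive and 3 negative, and the median was 0.01. Prima1, which anchors acetylcholinesterase in the membrane, measured -0.11 (SE 0.09), Tmem35a, a chaperone of nicotinic receptors, 0.05 (SE 0.08), and Bche, butyrylcholinesterase, 0.14 (SE 0.22).

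Genes of dopamine synthesis, its cofactor tetrahydrobiopterin and dopamine breakdown had 7 negative and 2 positive estimates among 9 tested, with a median log2 fold change of -0.08 and 0 called. Ddc encodes aromatic amino acid decarboxylase, the step after Th. It had 0.659 to 1.152 CPM in vehicle and 0.517 to 0.773 CPM after vigabatrin, and these ranges overlapped (log2 fold change -0.41, SE 0.20, edgeR adjusted p = 0.701). Spr and Pts, enzymes of cofactor synthesis, measured -0.10 (SE 0.07) and -0.08 (SE 0.05). Of the other dopamine receptors and monoamine transporters, Drd5 had 1.55 CPM in vehicle and measured -0.08 (SE 0.11), Slc18a1 measured 0.23 (SE 0.34), and Drd3 had at most 2 counts per library. Among 10 genes of dopamine receptor signalling the median was 0.05, with 6 positive and 4 negative estimates and 0 called. Adcy5, an adenylate cyclase, measured 0.11 (SE 0.05), Gnal, a stimulatory G protein subunit, 0.07 (SE 0.04), and Ppp1r1b, which encodes the phosphatase regulator DARPP-32, -0.20 (SE 0.13). Among transcription factors of dopamine neurons, Nr4a2 had 10.4 CPM in vehicle and measured -0.04 (SE 0.10). Pitx3, which is also a gene of the lens, ran from 1 to 508 counts per library and measured 0.37 (SE 1.504). The 6 genes summed to 20.3 to 23.4 CPM in the lens-rich libraries and 12.5 to 14.4 CPM in the others. Foxa2 had 0 counts, En2 measured 0.08 (SE 0.14) and Lmx1b -0.51 (SE 1.11), and 0 of the 4 tested were called.

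Of 4 further starburst markers, 3 were positive and 1 negative, with a median log2 fold change of 0.10 and 0 called by edgeR. Megf10 encodes a cell-surface receptor that spaces the starburst mosaic and is also made by Müller glia. It had 28.0, 27.1, 31.0, 28.4 and 31.1 CPM in vehicle 1580, 1582, 2345, 832 and 835, and 33.6, 32.1, 36.05, 34.8 and 33.8 CPM in vigabatrin 2344, 2347, 2349, 2428 and 2429. The lowest vigabatrin library was above the highest vehicle library. Its log2 fold change was 0.23 (SE 0.05) with an edgeR adjusted p of 0.365, while DESeq2's Wald test gave 0.23 with an adjusted p of 0.0235. Fezf1, a transcription factor of starburst cells, was the negative one and the farthest from 0, at -0.31 (SE 0.21, edgeR adjusted p = 0.793), from means of 1.54 CPM in vehicle and 1.24 CPM with vigabatrin. Sox2, in starburst cells and Müller glia, measured 0.12 (SE 0.06), and Isl1, in starburst, bipolar and ganglion cells, 0.08 (SE 0.05). Among 9 general amacrine markers 7 estimates were positive and 2 negative, the median was 0.04 and 0 were called by edgeR. Tfap2b, a transcription factor of amacrine cells, had 214 to 244 CPM in vehicle and 258 to 276 CPM after vigabatrin, without overlap. Its log2 fold change was 0.20 (SE 0.04), with an adjusted p of 0.339 by edgeR and 0.00608 by DESeq2. Chrna2, Megf10 and Tfap2b were named for their small p within their lists, so their separate groups and DESeq2 values are a description. Of all tested genes, 1.48% had separate groups and DESeq2 called 0.564%. Tfap2a, a related factor, measured 0.11 (SE 0.04).

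**Figure D5:**
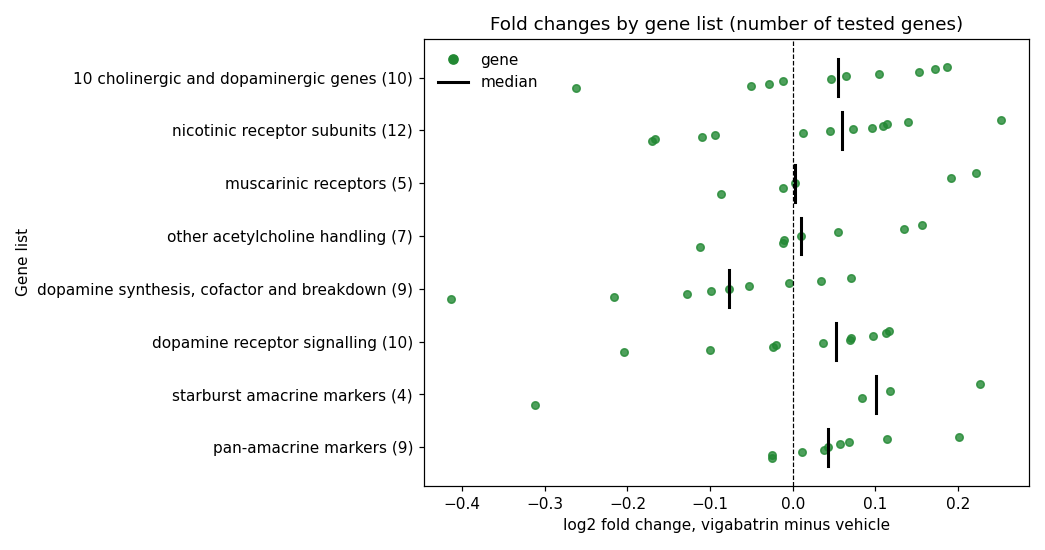
Log2 fold change of every tested gene (points, linear axis) in the set of 10 and in 7 other gene lists, with the number of tested genes in brackets and the median as a black line. The medians lie between -0.08, for dopamine synthesis, cofactor and breakdown, and 0.10, for starburst markers, and no point was called by edgeR.

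The genes most like Chat and Th were sought by Pearson's r of log2 CPM over the 10 libraries, each centred on its group mean. For Chat they were S100pbp (r = 0.927, Spearman's rho = 0.927), Prrt3 (0.926 and 0.939) and Npas3 (0.909 and 0.83). For Th they were Actr3b (0.979 and 0.976), Antxrl (0.95 and 0.927) and Rtn1 (0.932 and 0.794). These are the largest of 17435 tested genes over 10 libraries that also differ in lens content, and they carry no test.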

How the data were processed

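The authors deposited a table of read counts for Ensembl genes of mouse build mm10. HTSeq 0.6.1 is the counter in the submitters' processing notes, which list edgeR 3.16.5 and DESeq2 too. Aligner, annotation release and strandedness: not given in the sources used here. Reads of antisense genes (Gm42456 at Ache, Gm29261 at Slc18a2) may therefore not be separated from those of the genes they overlap. Chat and Slc18a3 overlap in span on the same strand, with 0 exon bases shared in GENCODE M21. Whether their exons are also separate in the release used for the counts is not known. In the table, 1 further column of counts had no matching sample and was left out.

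Genes were kept by filterByExpr and libraries scaled by TMM. The 2 groups were compared by quasi-likelihood F tests in edgeR 4.0.16 (R 4.3.3, limma 3.58.1) without covariates, at a Benjamini-Hochberg adjusted p below 0.05 over 17435 genes. DESeq2 1.42.0 served as an alternative. An SE is the estimate over the square root of its F value. Chi-square tests found every within-group pair of libraries further apart than sampling noise, and each library was treated as 1 replicate. That outcome cannot tell whether libraries stem from different mice, since technical differences and lens content can also set them apart. In simulated data for this comparison (17435 genes, 50 changed by each fold), recovery was 14% at 1.25-fold, 36% at 1.5-fold, 78% at 2-fold and 84% at 3-fold, beside 6 false calls.

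The members and lists were chosen with earlier results of these data known. Named genes are the 10 members, up to 3 of smallest p in each other list and the 3 most like Chat and Th. Not every gene this rule selects is reported here. Lists of other tissues are given as sums. Chrna6, Chrnb2, Chrnb3, Chrna9, Chrnd, Drd3, Foxa2, Pitx3, Fezf1, Pax6, Gad1, Slc6a2, Dbh, Pnmt, Phox2a, Rpe65, Krt5, Krt12, Krt15, Aldh3a1 and Lim2 were named after their values were seen. Summed markers of cornea reached 32.5 CPM in vehicle and 30.6 CPM after vigabatrin, sums that are mostly Aldh3a1, while Krt5, Krt12 and Krt15 had log2 fold changes of -2.25, -1.55 and -2.45. Those of iris and ciliary body reached 260 and 180.0 CPM, and those of serotonin and histamine neurons 41.9 and 44.8 CPM.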

Additional observations from a re-analysis of the deposited data

Results flagged for a closer look

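Among the 10 genes and 26 genes selected from the other lists, 72 groups of 5 libraries were examined for a value set apart from the rest of its group, and 3 had one. By chance 1 in 20 groups, here 3.6, would be picked out. Slc18a3 was high in vehicle 1580 at 13 CPM, with the remaining vehicle libraries at 10.6 to 11.1 CPM. Chrna4 was low in vigabatrin 2429, a lens-rich library, at 33.2 CPM, with the remaining vigabatrin libraries at 35.8 to 36.7 CPM. Lmx1b was high in vigabatrin 2344, which is also lens-rich, at 2.25 CPM, with the remaining vigabatrin libraries at 0.0385 to 0.583 CPM.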

How the results depend on the processing

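No paired analysis was possible because the 2 groups share no title number. Over all genes, 1 was called higher and 0 lower by edgeR. Genes called higher numbered 0 with library size only, with no filter, with a term for title numbers or for lens level and without the 4 lens-rich libraries, 3 by limma-voom and 34 by DESeq2, which called 51 lower. Leaving out 1 library at a time gave 0 to 13 higher and 0 to 26 lower, the most without vehicle 2345. The 10 genes gave 197 estimates under the alternatives, of which 176 kept their sign, 21 changed sign and 0 passed the threshold. Of 512 estimates for the 26 genes selected from other lists, 494 kept their sign and side of the threshold, 16 changed sign and 2 passed the threshold. Both passed by DESeq2, which called 1 starburst gene (Megf10) and 1 general amacrine gene (Tfap2b), against 0.564% of all genes. The 26 genes were selected for small p in these same data, so these calls are a description. Genes of the 10 whose groups did not overlap numbered 0 with library size only and with at least 1 CPM in 5 libraries. They numbered 2 with no filter (Drd4 and Chat) and 3 without the lens-rich libraries (Drd4, Chat and Slc5a7). Leaving out 1 library gave 0 (without vigabatrin 2429) to 3 (without vigabatrin 2344). With upper quartile scaling the 1 gene was Chat. The share of all tested genes in these settings is not given here. Groups of fewer libraries separate more easily by chance, so higher counts in such settings do not show a clearer difference.

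With a term for title numbers, log2 fold changes that changed sign were 0.0433 for Ache, -0.087 for Drd1, -0.053 for Drd2, 0.0899 for Prima1, 0.0219 for Pts, -0.0331 for Adcy5, -0.0011 for Gnal and 4.3717 for Lmx1b. Without the lens-rich libraries they were 0 for Ache, 0.1591 for Th, -0.0415 for Drd2, -0.0047 for Tmem35a, -0.0426 for En2 and 0.3185 for Lmx1b. With limma-voom they were -0.0327 for Drd2, 0.0091 for Chrm3, -0.0039 for Tmem35a, -4e-04 for En2 and 0.0299 for Lmx1b, and with upper quartile scaling 4e-04 for Slc18a2. Leaving out 1 library gave -0.1712 to 0.0842 for Th, -0.1141 to 0.0448 for Slc18a2, -0.1781 to 0.3589 for Slc6a3, -0.0406 to 0.0864 for Drd2, -0.0129 to 0.0909 for Tmem35a, -0.0221 to 0.2709 for Bche and -0.1023 to 0.0123 for Nr4a2. Estimates that kept their sign but moved by over 1.5 times include, with the term for title numbers, -0.1535 for Th, -0.2275 for Slc18a2 and 0.8911 for Slc6a3, and 0.5847 for Slc6a3 with limma-voom. The causes were not tested. With GENCODE M21 lengths, an alternative added after seeing the data, vehicle levels in CPM per kb were 3.03 for Chat, 2.72 for Slc5a7, 29.8 for Ache, 1.31 for Th, 1.43 for Slc18a2, 10.9 for Drd2 and 74.8 for Drd4. Slc6a3 had too few counts to be tested under the stricter filter or without the lens-rich libraries, and DESeq2 gave it no adjusted p.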
